A study of Homo sapiens with 8 samples.

Results

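The genes described here are 6 replication-dependent histone genes, HIST1H4J, HIST1H4K, HIST2H4B, HIST1H2BK, HIST1H2BO and HIST2H2AC, at which the FLAG-tagged transcription factor dnTCF1EWT gave ChIP-seq peaks in DLD-1 cells. The genes were chosen by a measured value, since each is named in the deposited annotation as the nearest gene of at least 1 peak. They account for 9 of the 23433 peaks in the 6 deposited lists, 5 in the dnTCF1EWT 2 h list and 4 in the dnTCF1EWT 9 h list. A further 12 peaks carry the names of 12 other HIST1H and HIST2H genes and serve as a comparison. The presence of a peak was part of the choice of the members, so it is given as a description and carries no test. How the 6 members were chosen among the HIST1H and HIST2H names with a peak is not known.

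Replication-dependent histone genes encode the core histones H2A, H2B, H3 and H4 and the linker histone H1, which package newly made DNA. They are small, intronless genes that lie in clusters on chromosomes 6 (HIST1) and 1 (HIST2), are transcribed mainly in S phase, and give mRNAs that end in a stem-loop rather than a poly(A) tail. Their promoters are known for subtype-specific elements, such as the octamer of H2B promoters, which is bound by the POU2F1 protein (OCT1), and the element of H4 promoters bound by HINFP. TCF1 is a transcription factor of the Wnt pathway that binds DNA through its HMG box at Wnt response elements, abbreviated WREs and written here as 5′-CTTTGWWS-3′. The E isoform carries an additional DNA-binding domain, the C-clamp, which recognizes the GC-rich Helper site (5′-RCCGCC-3′). The shorter form 5′-RCCG-3′ is called the short Helper site.

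DLD-1 is a colon cancer cell line with constitutively active Wnt signaling. Clonal lines carried a doxycycline-inducible transgene for dnTCF1EWT, a dominant negative TCF1E that lacks the β-catenin-binding domain, or for dnTCF1Emut, the same protein with a mutated C-clamp. Both lines were kept under blasticidin and zeocin selection and were treated with doxycycline for 0, 2 or 9 h, so that the 0 h cells carried the transgene without induction. FLAG immunoprecipitation was followed by sequencing, and each of the 6 conditions is 1 list of peaks called on pooled duplicates. No spread between replicates can therefore be given. Each protein had its own clonal line and libraries, and an effect of the line or library cannot be told apart from one of the protein.

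The lists held 1907, 5585 and 12996 peaks for dnTCF1EWT at 0, 2 and 9 h and 708, 1883 and 354 peaks for dnTCF1Emut. Sequencing depth is unknown, as the lists give no read numbers. The peak score is the score of the peak caller MACS, which grows as the P-value of the peak falls and was not adjusted for differences between libraries. The lists also differed in composition. Median GC content was 48.9% to 51.3% in the dnTCF1EWT lists and 6.32% to 37.1% in the dnTCF1Emut lists, and Alu elements held 48.5% to 76.0% of the dnTCF1EWT peaks and 0.478% to 1.27% of the dnTCF1Emut peaks.

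The promoter sequences of HIST1H4J and HIST1H4K are shown first because these were the members with a peak over the transcription start site (TSS), and the members listed at both times. The lines give the 250 bases before the TSS from RefSeq on GRCh38.p14, 5′ to 3′ in the direction of transcription, for HIST1H4J (current symbol H4C11) at chr6:27823842-27824091 on the plus strand and for HIST1H4K (H4C12) at chr6:27831561-27831810 on the minus strand. Capitals mark short Helper matches, which read RCCG on the strand shown or, for a match on the opposite strand, CGGY.
HIST1H4J: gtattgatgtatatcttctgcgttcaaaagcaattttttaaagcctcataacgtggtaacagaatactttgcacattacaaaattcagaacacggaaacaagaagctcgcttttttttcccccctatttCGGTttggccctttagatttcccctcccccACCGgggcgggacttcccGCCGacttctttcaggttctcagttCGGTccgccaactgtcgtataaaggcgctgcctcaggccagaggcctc
HIST1H4K: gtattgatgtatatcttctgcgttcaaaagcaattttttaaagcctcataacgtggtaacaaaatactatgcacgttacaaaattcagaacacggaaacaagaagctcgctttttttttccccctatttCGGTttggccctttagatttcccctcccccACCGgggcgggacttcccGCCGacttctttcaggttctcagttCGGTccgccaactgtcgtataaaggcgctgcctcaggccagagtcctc
Both held 4 short Helper matches upstream of the TSS, at the same positions, and 6 in the 300-base window that runs on to 50 bases after the TSS. No match to the WRE or to the full Helper site was found on either strand of these windows. Both windows held the TATA box sequence 5′-TATAAA-3′ starting 31 bases before the TSS.

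The HIST1H4J and HIST1H4K windows differed at 5 of 300 bases, an identity of 98.3%. With positions counted from 1 at the 5′ end of the window, the differences from HIST1H4J to HIST1H4K were G62A, T69A, A75G, C119T and G246T. None of the 5 lay in a short Helper match (0 of 5), and T69A lay in the WRE core 5′-CTTTG-3′ that HIST1H4J holds at position -184 and HIST1H4K lacks. Reads from such near-identical stretches can be hard to assign to 1 gene, and how the aligned reads were split between the copies is not recorded in the lists. The TSSs of these genes lie 7402 bases apart in the deposited hg19 annotation and 7468 bases apart in the RefSeq windows, a difference of 66 bases. Positions in the windows and positions of the peaks therefore refer to slightly different TSSs.

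At 2 h of dnTCF1EWT, the strongest peaks of the members lay over the HIST1H4K and HIST1H4J promoters. HIST1H4K, which encodes histone H4, had a peak at chr6:27799238-27799622 (hg19) with a score of 115.37, rank 782 of 5585. It ran from position -317 to position 67 around the deposited TSS. HIST1H4J, which encodes the same histone from a separate gene, had a peak at chr6:27791614-27791970 with a score of 110.25 and rank 827. This peak ran from -289 to 67, so that both covered the proximal promoter and the first bases of the gene. The centers of the 2 peaks lay 7.64 kb apart.

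The other 3 members at 2 h had peaks inside the gene rather than over its TSS. HIST1H2BO, which encodes an H2B, had a score of 72.50 (rank 1487) at chr6:27861354-27861588, from 151 to 385 bases downstream of the TSS. HIST1H2BK, a second H2B gene, had a score of 67.07 (rank 1787) at chr6:27114297-27114514, from 123 to 341 bases downstream. HIST2H2AC, an H2A gene of the HIST2 cluster, had a score of 63.53 (rank 2099) at chr1:149858657-149858839, from 132 to 314 bases downstream. All 5 peaks had the promoter-TSS annotation, which was given to 2.27% of all 2 h peaks. The median score percentile of the 5 peaks, that is the percentage of peaks in the list with a lower score, was 73.3.

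The 3 peaks of other HIST1H and HIST2H names at 2 h scored lower than all 5 member peaks. HIST1H2AJ scored 56.90 and HIST1H2BN scored 53.17, both with the promoter-TSS annotation and centers 407 and 152 bases downstream of the TSS. HIST1H2BH scored 51.93, and its peak lay 5.01 kb from the TSS in an Alu element. The lowest member, HIST2H2AC at 63.53, and the highest other HIST1H or HIST2H name, HIST1H2AJ at 56.90, are thus the nearest values on either side of the selection at 2 h. HIST1H2AJ, HIST1H4J, HIST1H4K, HIST1H2BN and HIST1H2BO lie in 1 stretch of 79.7 kb, and their peaks were all 5 of the 2 h peaks in that stretch.

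**Figure D1:**
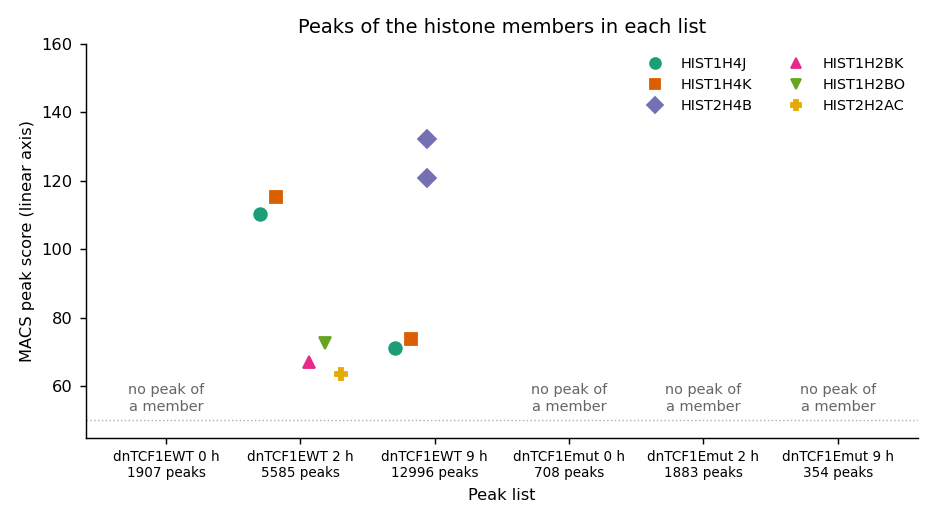
MACS peak score (linear axis) of each member's peaks in the 6 lists, with 1 symbol per peak and the number of peaks of each list under its name. HIST1H4K and HIST1H4J scored 115.37 and 110.25 at 2 h and 73.89 and 71.31 at 9 h. The 2 peaks named HIST2H4B scored 132.31 and 120.94 at 9 h, and the other 4 lists had no peak of a member. The dotted line marks a score of 50, near the lowest score of every list.

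At 9 h of dnTCF1EWT, the peaks named HIST2H4B had the highest scores among those of the HIST1H and HIST2H names. HIST2H4B encodes histone H4 and lies in a duplicated part of the HIST2 cluster together with its copy HIST2H4A. The annotation gave it 2 peaks, at chr1:149804424-149804850 with a score of 132.31 (rank 308 of 12996) and at chr1:149832096-149832522 with a score of 120.94 (rank 378). The 2 peaks had centers 27.7 kb apart and were identical in length (427 bases), GC content (51.5%), distance to the TSS (416 bases downstream) and motif counts. The RefSeq promoter windows of HIST2H4A and HIST2H4B were identical over all 300 bases, but these windows do not reach the peaks, and the sequences under the 2 peaks were not compared. HIST2H4A precedes HIST2H4B along chromosome 1 in RefSeq, so the first peak, with the score of 132.31, likely lies at HIST2H4A. The annotation does not use that name. How reads were divided between the 2 copies is not recorded, and the peaks may not be independent. Each peak ran from 203 to 629 bases downstream of the TSS and was annotated to the transcription termination site (TTS).

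HIST1H4K and HIST1H4J were the other members at 9 h, and again had nearly the same score. HIST1H4K scored 73.89 (rank 1657) at chr6:27799202-27799578 and HIST1H4J scored 71.31 (rank 2025) at chr6:27791630-27792006. Both peaks were 377 bases long, ran from -273 to 103 around the TSS, and had centers 7.57 kb apart. These 2 peaks had the promoter-TSS annotation, which was given to 1.69% of all 9 h peaks. The median score percentile of the 4 member peaks at 9 h was 92.2.

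The other HIST1H and HIST2H names at 9 h fell into 2 kinds of peaks. Alu elements held 5 of the 9, at HIST1H3C, HIST1H4B, HIST2H2BF, HIST1H3I and HIST1H2BJ, with distances from 1.96 kb downstream (HIST1H3C) to 56.0 kb upstream (HIST2H2BF) of the TSS. Over the whole 9 h list, 76.0% of peaks were annotated to an Alu element, and at 2 h 48.5%. Of the 9 member peaks of both lists, 0 were, but each has a promoter-TSS or TTS annotation. Among the histone peaks such an annotation stands in place of a repeat name, so this count does not show whether they hold Alu sequence. The other 4 lay within 1 kb of a TSS. HIST1H1C, a linker histone gene, scored 68.81 within its exon, HIST1H3F, an H3 gene, scored 65.47 at its TTS, and the duplicated H2A genes HIST2H2AA4 and HIST2H2AA3 scored 57.83 and 53.82. Of the other names, HIST1H3C at 74.24 and HIST1H1C at 68.81 are the values on either side of the lowest member score at 9 h, 71.31 at HIST1H4J, so a score alone does not separate the members from the other names at this time.

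**Figure D2:**
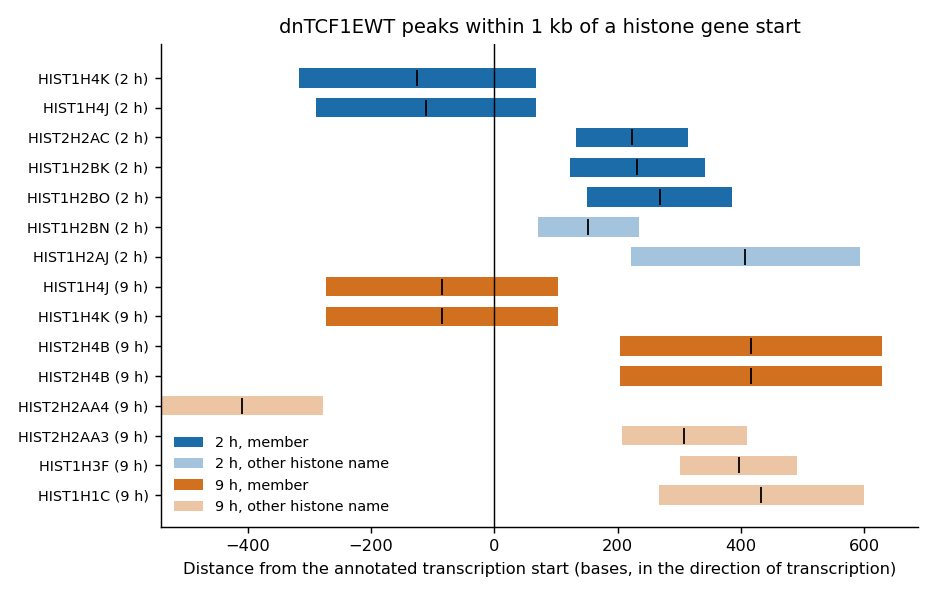
Extent of each dnTCF1EWT peak whose center lies within 1 kb of a histone TSS, in bases from the deposited TSS in the direction of transcription, with bars for the peaks and ticks for their centers. The HIST1H4J and HIST1H4K peaks span the TSS at both times (from -317 or -289 to 67 at 2 h and from -273 to 103 at 9 h), whereas the H2A and H2B members and HIST2H4B have peaks that start 123 to 203 bases downstream of it.

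The 2 H4 genes were the members that both times had in common. Of the 5 member peaks at 2 h, 2 were overlapped by a 9 h peak, beside 14.9% of all 2 h peaks and 24.4% of the 2 h promoter-TSS peaks. Over the 8 HIST1H and HIST2H peaks at 2 h, the same 2 were overlapped. In the other direction, 2 of the 4 member peaks at 9 h were overlapped by a 2 h peak, beside 6.47% of all 9 h peaks. For HIST1H4K and for HIST1H4J, the 2 h and 9 h peaks shared 341 bases. HIST1H2BO, HIST1H2BK and HIST2H2AC were listed at 2 h and not at 9 h. HIST2H4B was listed at 9 h and not at 2 h, and of the 382 peaks at 9 h with a score of 120 or more, a limit taken from the HIST2H4B scores, 36.6% had no overlapping 2 h peak.

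Scores at the 2 shared regions were lower at 9 h than at 2 h. The log2 ratio of the 9 h to the 2 h score was -0.64 for HIST1H4K and -0.63 for HIST1H4J, beside a median of -0.33 over the 833 shared regions (quartiles -1.26 and 0.15) and -0.63 over the 31 shared promoter-TSS regions. Both genes thus lay within the middle range of the shared regions. Within their own list the genes hardly moved. HIST1H4K was at percentile 86.0 at 2 h and 87.2 at 9 h, and HIST1H4J at 85.2 and 84.4.

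None of the members had a peak in untreated cells or in any dnTCF1Emut list. The peak nearest to a member region was 272 kb away in the dnTCF1EWT 0 h list and 653 kb away in the dnTCF1Emut 2 h list. In the dnTCF1Emut 2 h list, 0 of 1883 peaks had a HIST1H or HIST2H name, which allows a share of up to 0.159%. Of its promoter-TSS peaks 0 of 13 did, which allows up to 23.1% (limits of 3 counts, for counting error only). In the dnTCF1EWT 2 h list, 8 of 5585 peaks had such a name, and 7 of 127 promoter-TSS peaks did (5.51%). Both of these shares lie below the limits, so the counts do not show a difference in share between the proteins. Of the 5 member regions of dnTCF1EWT at 2 h, 0 were overlapped by a dnTCF1Emut 2 h peak, beside 9.44% of all dnTCF1EWT 2 h peaks and 5.51% of the promoter-TSS peaks. At these shares and with 5 regions, a difference between the members and other peaks was not detectable.

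The length and the composition of the lists differed together with the presence of member peaks. When the dnTCF1EWT 2 h list was reduced to its 1883 highest scores, the length of the dnTCF1Emut 2 h list, it kept 4 of the 5 member peaks. It kept none of the 3 peaks of other HIST1H and HIST2H names (0 of 3). The members were chosen for their peaks and scored above these names at 2 h, so this count is a description only. The reduced list still held 58 promoter-TSS peaks, beside 13 in the dnTCF1Emut 2 h list, so equal length did not equalize composition. The top 354 scores of the dnTCF1EWT 2 h list, the length of the dnTCF1Emut 9 h list, held 0 member peaks. In the dnTCF1EWT 9 h list, which matches that list in time, the top 354 include a peak named HIST2H4B at rank 308. The members had GC contents from 49.1% to 66.1%, a range that held 47.9% of the dnTCF1EWT 2 h peaks and 3.35% of the dnTCF1Emut 2 h peaks. Of the peaks with a center within 500 bases of a TSS, 58 of 104 were in this range in the dnTCF1EWT 2 h list and 0 of 10 in the dnTCF1Emut 2 h list. The part of this shift in composition in the absence of the histone genes was not tested.

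Counted by gene, peaks within 500 bases of a TSS were found at 7 of 67 HIST1H and HIST2H protein-coding genes at 2 h (10.4%), beside 0.384% of the 20052 protein-coding RefSeq genes. At 9 h the count by annotated name was also 7 of 67, with HIST2H4B counted once, beside 0.569% of all protein-coding genes. HIST2H4A, at which 1 of the 2 peaks named HIST2H4B likely lies, is counted as a gene without a peak here and among the H4 genes below. These genes include the members, which were chosen for their peaks, and they share sequence. By histone class, H4 genes had such a peak in 2 of 14 cases at 2 h and 3 of 14 at 9 h, and H2A genes in 2 of 16 at both times, though at different genes. H2B genes had 3 of 17 at 2 h and 0 of 17 at 9 h. H3 genes had 0 of 14 and 1 of 14, and H1 genes 0 of 6 and 1 of 6. Histone genes made up 7 of the 127 promoter-TSS peaks at 2 h (5.51%) and 4 of the 220 at 9 h (1.82%).

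No member peak held a WRE. At 2 h, WREs were found in 0 of 5 member peaks, beside 16.3% of all peaks and 13.4% of the promoter-TSS peaks. At 9 h they were found in 0 of 4 member peaks, beside 6.56% of all peaks and 9.09% of the promoter-TSS peaks. With so few peaks, an absence of WREs does not set the members apart from other peaks at either time. The 12 peaks of the other HIST1H and HIST2H names held no WRE either (0 of 3 at 2 h and 0 of 9 at 9 h).

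Short Helper sites were found in every member peak. At 2 h they were present in 5 of 5 peaks, beside 54.1% of all peaks and 86.6% of the promoter-TSS peaks, and at 9 h in 4 of 4 peaks, beside 55.4% of all peaks and 79.1% of the promoter-TSS peaks. The HIST1H4K and HIST1H4J peaks each held 7 at 2 h and 8 at 9 h, and each HIST2H4B peak held 11. HIST2H2AC held 6, and HIST1H2BO and HIST1H2BK held 3 each. Per length, the mean was 19.4 short Helper sites per kb over the 5 member peaks at 2 h and 15.0 over the promoter-TSS peaks, and 23.5 and 14.3 at 9 h. Among promoter-TSS peaks within the GC range of the members of the same list, a comparison chosen after seeing the data, the mean was 14.3 at 2 h and 11.2 at 9 h.

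The H4 peaks combined a GC content below the median of the promoter-TSS peaks with a short Helper density above most of them. The HIST1H4J peak at 2 h had a GC content of 51.5%, above that of 33.9% of the promoter-TSS peaks, and a density of 19.6 short Helper sites per kb, above that of 75.6% of them. HIST1H4K at 2 h had a GC content above 23.6% and a density above 72.4% of these peaks. HIST2H4B at 9 h had 25.8 sites per kb, above 85.0% of the promoter-TSS peaks of its list, at a GC content above 34.1% of them. The H2B members lay elsewhere, with a GC content of 61.3% for HIST1H2BO and 58.7% for HIST1H2BK and densities of 12.8 and 13.8 sites per kb. HIST2H2AC was the member with the highest GC content (66.1%) and the highest density (32.8 sites per kb). The short Helper sequence holds a CpG dinucleotide. Median CpG content was 8.12% over member peaks and 4.85% over promoter-TSS peaks at 2 h, and 6.98% and 4.405% at 9 h. CpG content was above that of 60.6% of the promoter-TSS peaks for HIST1H4K and 63.0% for HIST1H4J at 2 h. For HIST2H4B at 9 h it was above that of 78.6%. How far CpG content goes with the short Helper density was not tested.

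**Figure D3:**
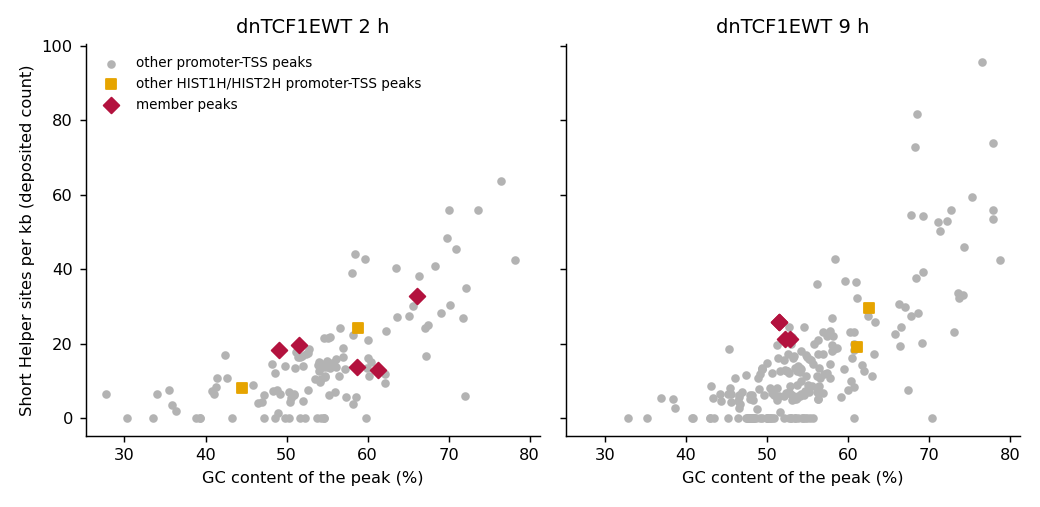
Short Helper sites per kb against GC content (%) for each promoter-TSS peak of dnTCF1EWT at 2 h (left) and 9 h (right), with member peaks as diamonds and other histone promoter-TSS peaks as squares. The HIST2H4B peaks, annotated to a TTS, are included with the members, and their 2 diamonds coincide at 51.5% GC and 25.8 sites per kb. The H4 diamonds lie at 49.1% to 52.8% GC and 18.2 to 25.8 sites per kb.

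Full Helper sites were present in 3 of the 5 member peaks at 2 h (60%, exact 95% interval 14.7% to 94.7%), beside 7.23% of all peaks and 34.6% of the promoter-TSS peaks. At 9 h they were present in 4 of 4 (100%, interval 39.8% to 100%), beside 4.83% of all peaks and 29.1% of the promoter-TSS peaks. Presence of a site also depends on the length of the peak, and these percentages were not adjusted for it. Median length at 9 h was 402 bases for the members, 197 for the promoter-TSS peaks and 171 for all peaks. At 2 h it was 235, 198 and 187. The intervals cover counting error only, and the 4 peaks at 9 h are those of 2 pairs of gene copies, HIST1H4J with HIST1H4K and HIST2H4B with its copy, so they may not be independent. At 2 h the percentage of promoter-TSS peaks lies within the interval of the members. HIST2H2AC held 3 Helper sites, HIST1H4J and HIST1H4K held 1 each at both times, each HIST2H4B peak held 1, and HIST1H2BO and HIST1H2BK held none (0 each). The mean density over member peaks was 4.36 Helper sites per kb at 2 h and 2.5 at 9 h, beside 3.22 and 3.0 over the promoter-TSS peaks, so that the order of the 2 groups differed between the times. HIST2H2AC had 16.4 sites per kb, and without it the mean of the other 4 peaks at 2 h was 1.35.

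The promoter windows of the H2A and H2B members differed from those of the H4 members. HIST1H2BK and HIST1H2BO held no short Helper match in the 300 bases (0 each) and HIST2H2AC held 3, whereas HIST1H4J and HIST1H4K held 6 and HIST2H4B held 8. The short Helper sites counted in the H2B peaks, which lie downstream of the TSS, are thus not in the promoter windows. Short Helper matches were present in 12 of 12 H4, 13 of 15 H2A and 12 of 17 H2B promoter windows, and in 77.7% of the windows of all 27305 genes. The median number of matches per window was 5.5 over the H4, 3 over the H2A and 2 over the H2B genes, and 4 over all genes. Full Helper matches were present in 1 of 12 H4 windows and in 0 of the 6 members. They were present in 12.9% of the 62 HIST1H and HIST2H windows and in 41.5% of all windows. The 1 Helper site counted in each HIST1H4J and HIST1H4K peak therefore was not found in the 300-base window.

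The octamer 5′-ATTTGCAT-3′ was present in the windows of HIST1H2BK, HIST1H2BO and HIST2H2AC and in those of none of the H4 members (0 of 3). It is shown here because it separates the promoters of the 2 kinds of members. The lines give 60 bases around it on GRCh38.p14, 5′ to 3′ in the direction of transcription, at chr6:27146871-27146930 (minus strand) for HIST1H2BK, chr6:27893250-27893309 (plus strand) for HIST1H2BO and chr1:149886695-149886754 (plus strand) for HIST2H2AC. Capitals mark the octamer, on either strand.
HIST1H2BK: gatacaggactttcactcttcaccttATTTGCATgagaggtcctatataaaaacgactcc
HIST1H2BO: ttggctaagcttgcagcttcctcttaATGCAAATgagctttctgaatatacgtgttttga
HIST2H2AC: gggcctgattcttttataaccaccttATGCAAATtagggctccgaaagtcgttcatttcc
The octamer starts at position -49 in HIST1H2BK, -149 in HIST1H2BO and -197 in HIST2H2AC. It was found in 14 of 17 H2B, 11 of 15 H2A and 0 of 12 H4 windows, and in 1.80% of all windows. The CCAAT box sequence was found 6, 3 and 3 times in these windows and 0 times in the H4 members. It was present in 85.5% of the HIST1H and HIST2H windows and in 35.7% of all windows. None of these 3 stretches was covered by the dnTCF1EWT peak of its gene, which started 123 bases or more downstream of the deposited TSS.

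**Figure D4:**
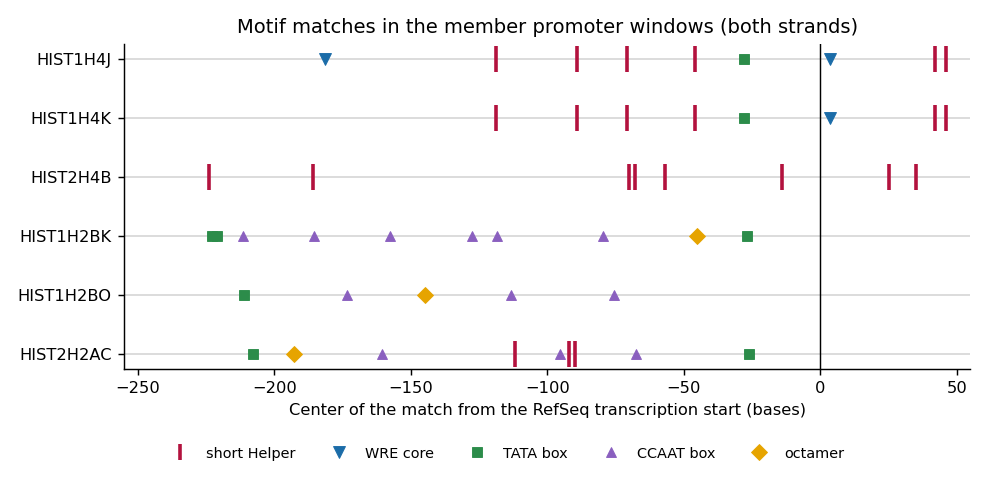
Positions of motif matches on both strands of the RefSeq promoter windows of the 6 members, in bases from the RefSeq TSS, with a symbol for each kind of motif. Short Helper matches (bars) number 6 in HIST1H4J and HIST1H4K and 8 in HIST2H4B, and the octamer (diamonds) appears in HIST1H2BK, HIST1H2BO and HIST2H2AC.

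Histone genes that are transcribed outside S phase were next examined as a related group. Of 12 replication-independent histone genes, 2 were named at a dnTCF1EWT 2 h peak, 3 at a 9 h peak and 1 at a 0 h peak, beside 17.4%, 33.6% and 6.76% of all protein-coding RefSeq genes. None had a peak center within 1 kb of the TSS (0 of 12), as was the case for nearly all genes, since 0.768% of them had such a peak at 2 h and 1.29% at 9 h. With 12 genes, a difference from this background was not detectable. H1F0, a linker histone gene, had a peak 22.5 kb upstream of its TSS that scored 464.26 at 2 h and 55.48 at 9 h and held 1 WRE at both times. CENPA, the centromeric H3 gene, had a peak 1.98 kb upstream at 2 h (54.79). The peaks at CENPA, at H2AFY2 and H1FX (9 h) and at H3F3C (0 h) lay in Alu elements.

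Regulators and processing factors of the replication-dependent histone genes were examined in the same way. Of 13 such genes, 4 were named at a peak at 2 h, beside 17.4% of all genes, and 7 at 9 h, beside 33.6%. Peak centers within 1 kb of a TSS were found at 0 of 13 at both times, and at the shares of 0.768% and 1.29% over all genes this count does not set the group apart. NPAT, the coactivator of histone gene transcription, had a peak in an intron 36.5 kb downstream of its TSS at 2 h (81.16), and CCNE1, which encodes cyclin E, had a peak 19.1 kb upstream at 9 h (89.89). Both lay in Alu elements, as did those of HINFP and LSM11 at both times and of LSM10, ZNF473 and E2F1 at 9 h. POU2F1 had a peak 57.5 kb upstream of its TSS, in an LTR element, in the dnTCF1EWT 2 h list (51.44) and in the dnTCF1Emut 2 h list (141.21). This was the only peak of these 2 gene groups in a dnTCF1Emut list. The other POU2F1 peaks, which scored 54.54 at 2 h and 70.64 and 51.22 at 9 h of dnTCF1EWT, lay in Alu elements.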

How the data were processed

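The data were 6 lists of ChIP-seq peaks, with the annotation and the motif counts of each peak. Per the submitters' processing notes, CASAVA 1.8.2, Bowtie2 2.0.0, MACS 1.3 and HOMER 3.16 were used with hg19. Duplicates were pooled by the authors before peaks were called, although the labels name first replicates. MACS scores were deposited by the authors as the peak score. GC and CpG content were deposited by the authors as a fraction of the peak sequence and are given in percent. Motif counts were deposited per peak, and distances are those between the center of a peak and its nearest RefSeq TSS. The named genes are the 6 members, every other HIST1H or HIST2H name with a peak, and 2 further lists of histone genes and regulators, of which those with a peak are named where a result needs them. The members and lists were chosen with earlier results of these data known, and no test was run on them.

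Peaks were ranked by score within a list, and percentiles are the percentage of peaks with a lower score. Peaks were called overlapping at 1 base or more, with the highest-scoring overlapping peak taken. All 6 members had a RefSeq promoter window (250 bases before to 50 after the TSS, GRCh38.p14), as did 62 of 67 HIST1H and HIST2H protein-coding genes, matched by gene ID with 1 window per gene. Motifs were searched on both strands, with overlapping matches counted. In 4 peaks of other genes that lay inside a window, Helper counts equalled the deposited counts in 4 of 4, and short Helper counts in 2 of 4, being higher in the other 2. None of these peaks held a WRE, so the deposited WRE counts were not checked. Overlaps and motif searches were tested on simulated data with planted answers. Input libraries were not used here, and no hg19 genome was used, so peak sequences are not shown. Software versions were SciPy 1.17.1, pandas 2.3.3, NumPy 2.4.6 and matplotlib 3.10.9 under Python 3.11.15.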

Additional observations from a re-analysis of the deposited data

How the results depend on the processing

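No paired analysis was possible because each condition is 1 pooled list and no replicate could be left out. With a score of 100 or more, 2 member peaks were left at 2 h and 2 at 9 h, and 0 of the other HIST1H and HIST2H names at either time. With a score above 67, 0 peaks of other HIST1H and HIST2H names were left at 2 h and 2 at 9 h, beside 4 member peaks at each time. With centers within 1 kb of the TSS, 4 peaks of these other names were left at 9 h. The percentage of comparison peaks with a Helper site was 50% at 2 h and 38.2% at 9 h for centers within 500 bases of a TSS, and 19.1% at 9 h for centers within 2 kb. The median score percentile of the members was 63.0 at 2 h and 70.2 at 9 h among promoter-TSS peaks, and the latter value rests on HIST1H4J and HIST1H4K only, since HIST2H4B is annotated to a TTS. The mean log2 ratio of the 9 h to the 2 h score at HIST1H4J and HIST1H4K was -0.64, whereas the mean difference in percentile was 0.25, with HIST1H4K at 1.25 and HIST1H4J at -0.76. The scores of the 2 lists are not on 1 scale. The other 36 values under an alternative stayed within 1.5 times a count, the 95% interval of a share or 1 SD over peaks of a density. The recount of motifs in member peaks could not be made, since no member peak lies within its promoter window. The depth of the libraries is unknown and limits what the absence of a peak can show.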

Other observations

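The highest-scoring peak between the outermost chromosome 6 histone peaks did not carry a histone name. It was annotated to MIR3143, 30.3 kb from its TSS, at chr6:27145459-27146026 (hg19), with a score of 898.52 at 2 h (rank 24) and 255.5 at 9 h (rank 90). It held 1 WRE, 8 short Helper sites and 0 Helper sites, whereas no member peak held a WRE. HIST1H2BK, the nearest member, had its 2 h peak on the same chromosome at chr6:27114297-27114514. Within the outermost chromosome 6 histone peaks, 7 of 12 peaks had a histone name at 2 h and 8 of 19 at 9 h.

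HIST3H2A and HIST4H4, which lie outside the HIST1 and HIST2 clusters, were each named at 1 peak. HIST3H2A scored 70.87 at 2 h, 9.19 kb downstream of its TSS in an LTR element, and HIST4H4 scored 52.50 at 9 h, 18.4 kb downstream in an Alu element.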
